A study of Drosophila melanogaster with 2 samples.

Results

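The nuclear genes for the subunits of oxidative phosphorylation were examined as targets of the chromatin protein CG18476. They were chosen by symbol: every protein-coding gene whose symbol begins with ND-, COX, UQCR-, ATPsyn, or Sdh followed by a capital letter. This gave 87 of the 13945 protein-coding genes on the chromosome arms 2L, 2R, 3L, 3R, 4 and X, of which 40 belong to complex I, 7 to complex II, 9 to complex III, 16 to complex IV and 15 to complex V. The data come from chromatin immunoprecipitation and sequencing (ChIP-seq) of 2 libraries of whole Drosophila melanogaster embryos, males and females together, collected from 0 to 24 h of development. The embryos carried a stable transgene for CG18476 with GFP (eGFP) at its C-terminal end, and chromatin was precipitated with an antibody to GFP. Both libraries belong to this 1 group, as biological replicates 1 and 2, and no untagged embryos were analysed here. The tagged protein comes from a single transgenic line, and the embryos mix all stages and tissues of that window. A low signal therefore cannot be told apart from binding in few cells.

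The respiratory chain sits in the inner mitochondrial membrane. Complexes I and II pass electrons from NADH and succinate to coenzyme Q, complex III passes them on to cytochrome c, and complex IV passes them to oxygen. The proton gradient built by complexes I, III and IV drives ATP synthesis by complex V. Most subunits are encoded by nuclear genes scattered over the chromosomes, so their stoichiometry depends on many separate promoters. Many subunit genes in Drosophila have a duplicate, named with a final L, and such duplicates are known mostly for expression in the testis.

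A promoter peak was a region with its summit within 500 bp of any transcription start site (TSS) of the gene. The authors deposited a set thresholded for reproducibility by the irreproducible discovery rate (IDR), with 3995 peaks, and longer lists of peaks and background regions for the pooled reads and for each replicate, with 30000 regions each. Signal is the authors' value for a region, in their units. Sequencing depth is unknown from the lists, so no value carries an error from read counting. The signals of replicate 1 and replicate 2 are given beside the pooled signal as the measure of spread.

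Of the 87 genes, 17 had a promoter peak of the thresholded set, which is 19.5% (95% exact binomial interval 11.8 to 29.4). Among all protein-coding genes 17.7% had one (2468 of 13945), so the share of the respiratory genes was near the background. With each summit given only to the nearest coding TSS, the shares were 8 of 87 (9.20%, 4.05 to 17.3) and 12.9% of all genes, so the order of the pair turned while the interval still held the background. Complex I held 9 of the 17 peaks, in 22.5% of its genes (10.8 to 38.5). Complex IV had 4 of 16 (25%, 7.27 to 52.4), complex V 3 of 15 (20%, 4.33 to 48.1) and complex II 1 of 7 (14.3%, 0.361 to 57.9). Complex III had 0 of 9, which leaves an upper bound of 33.6% by the exact interval. The intervals of all 5 complexes overlapped, and each held the background share. These intervals cover the counting of genes, not differences between embryos.

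**Figure D1:**
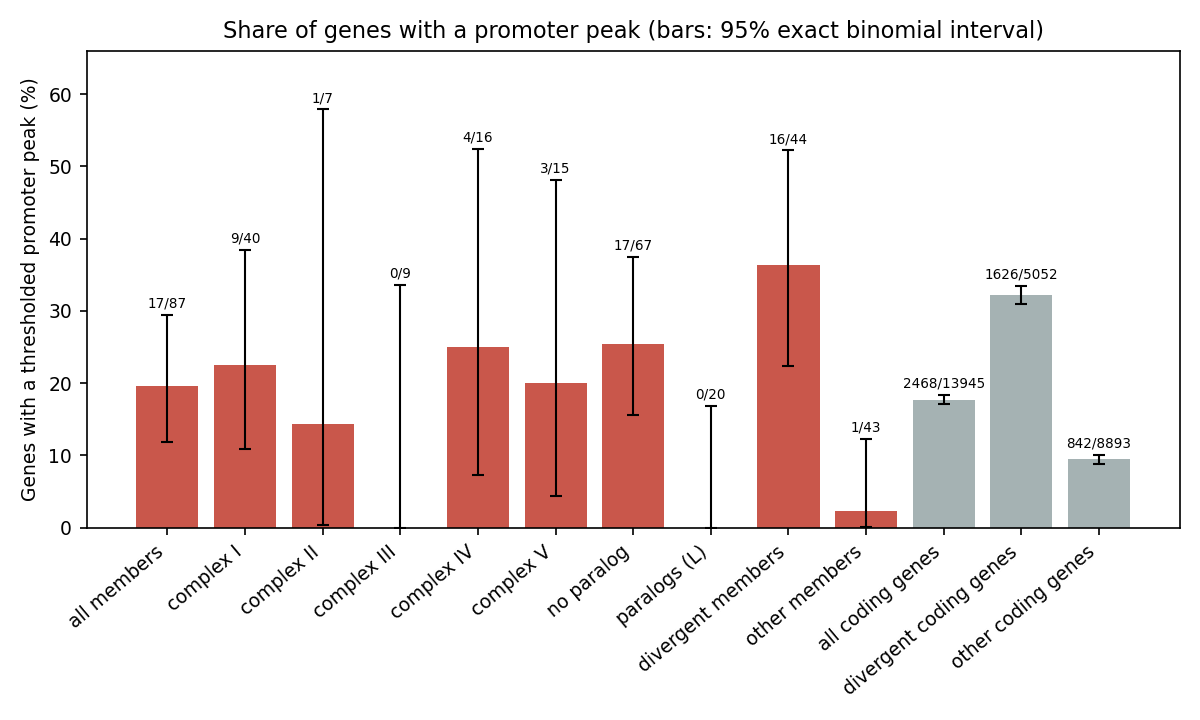
Share of genes with a thresholded promoter peak (y axis, percent) for the members, their groups and, in grey, all protein-coding genes; bars are shares, lines are 95% exact binomial intervals, and the fractions are counts. Peaks were present at 16 of 44 divergent members and 1 of the other 43, beside 32.2% and 9.47% of all divergent and other protein-coding genes, and the intervals of the 5 complexes overlap each other and the background of 17.7%.

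The pooled list, which also holds weak and background regions, reached 55 of the 87 genes (63.2%, 52.2 to 73.3). Among all protein-coding genes it reached 50.1%, which lies below that interval. More members than background genes were divergent (50.6% against 36.2%), with a protein-coding gene starting on the opposite strand at most 1000 bp upstream. The pooled list reached 34 of 44 divergent members (77.3%, 62.2 to 88.5), against 70.1% of all divergent genes. It reached 21 of the other 43 members (48.8%, 33.3 to 64.5), against 38.7% of all others. Each of these 2 intervals held its background share. The authors' -log10 q value went down to 0.021 in the pooled list, against a minimum of 2.31 in the thresholded set. A region of the pooled list alone may therefore be background. The list of replicate 1 reached 52 of 87 (59.8%, background 51.7%) and that of replicate 2 also 52 (background 47.7%). Both lists held 41 of the 87 genes, against 5402 of the 13945 protein-coding genes. Restricted to the 3995 strongest regions of each library, replicate 1 gave 18 genes (background 18.6%) and replicate 2 gave 14 (background 17.0%). Of the 87 genes 13 were in both, against 1955 of the 13945 protein-coding genes. Of the 64 genes that any list reached, 38 had a pooled region without entering the thresholded set (43.7% of 87, against 32.4% of all genes), and 9 had a region in a replicate list but not in the pooled one (10.3%, against 11.6%). The remaining 23 genes had no region within 500 bp of a TSS in any of the lists (26.4%, against 38.3%).

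The highest signals among the members were all at complex I genes. The strongest lay at ND-ASHI, an accessory subunit of the membrane arm, at X:6679233-6679517 (dm6), where the pooled signal was 272 (replicate 1, 122; replicate 2, 153), rank 290 of the thresholded peaks. The next was at ND-24, a core iron-sulphur subunit next to the NADH-binding site, at X:17632079-17632277, with a signal of 216 (115.5 and 99.3) and rank 482. The region of replicate 2 at ND-24 was longer than the pooled one and overlapped it by less than 0.5 of its length, so its value was read at any overlap. Both replicates placed these 2 genes highest among the 17. The lower of their 4 replicate signals was 99.3, and the highest replicate signal of any other member was 87.5.

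ND-42, an accessory subunit gene, reached 164 (74.97 and 87.5) at 3R:22027292-22027721. ND-MWFE, a small membrane-arm subunit, had one at 2R:13158270-13158699 with a signal of 157.5 (76.6 and 77.2). ND-51, the core subunit that binds NADH and FMN and works next to ND-24, had one at 2L:6062682-6063111 with a signal of 135 (59.1 and 79.6). These 3 peaks were within a narrow range in replicate 2, from 77.2 to 87.5. ND-SGDH, of the membrane arm, reached 125 at 3L:12138535-12138964 (60.7 and 46.3), with a second region of 69.2 at the same promoter in replicate 2. The other 3 peaks of complex I were weaker. ND-MNLL had 81.5 (34.3 and 44.7) at X:7893712-7894141. ND-B17.2 had 63.6 (29.1 and 29.5) at 2L:2580017-2580446, and ND-B22 had 61.1 (21.4 and 49.1) at 2L:13370862-13371291. ND-B22 was the weakest of all 17, at rank 3944 of 3995, and its replicates differed 2.29-fold. Among the 7 nuclear core subunits of complex I, 2 had a thresholded peak, and among the 27 accessory subunits without an L duplicate's name 7 had one. The third subunit of the NADH-binding module, ND-75, had a pooled signal of 23.1, with a matched region of 21.6 in replicate 1 and none in replicate 2.

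In complex II, SdhC was the member with a thresholded peak. It encodes a membrane anchor subunit, and its peak, located at 3R:11209775-11210204, reached 85.2 (49.5 and 37.4). The other anchor gene, SdhD, had a pooled region of 54.4 (28.2 and 22.9), just under the lowest thresholded signal of 60.6. The 2 catalytic genes were lower, with 38.2 (21.3 and 15.2) at SdhB, the iron-sulphur subunit, and 22 (8.70 and 12.8) at SdhA, the flavoprotein. Both replicates placed the anchor genes above the catalytic genes, with SdhC alone above the threshold. The SdhD summit lay in the UTR of another gene, udt, and the SdhC summit is shared with Tctp. Which gene these signals belong to was not tested.

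Complex III had no thresholded peak, and its highest pooled signal was 50.2 at UQCR-Q (18.1 in replicate 1 and 29.3 in replicate 2). UQCR-6.4L followed with 41.1, matched in replicate 2 (31.4) and not in replicate 1. UQCR-14 had 29.3, UQCR-C2, a core protein, had 21.7, and UQCR-11 had 15.6. Each of these 3 was matched in 1 replicate only. UQCR-C1, the other core protein, had no region in any list. Complex III thus had 5 of 9 genes in the pooled list (55.6%, against 50.1% of all genes). The lists of both replicates held 1 of the 9, against 5402 of all 13945 protein-coding genes.

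Complex IV had its strongest peak at COX5B, the zinc-binding subunit, at 2L:6557308-6557737 with a signal of 145 (56.3 and 81.2). COX5A reached 98.7 at 3R:11819261-11819690, but this value came mostly from 1 library, with 73.2 in replicate 1 and 26.5 in replicate 2. COX7B had 91.8 (48.2 and 45.3) at 3L:17425135-17425564, and COX8 had 67.7 (32.1 and 36.4) at 3L:21539322-21539751. COX5A stood apart from these, since the replicates of the others differed by at most 1.44-fold. COX6B, with a pooled signal of 56.3 (37.5 and 17.1), was below the threshold. COX7C followed with 30.1, with a matched region of 14.6 in replicate 2 and none in replicate 1.

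Complex V had 3 thresholded peaks among the genes chosen by symbol, all with a signal below the members' median of 91.8. The gene of the alpha subunit, blw, falls outside the symbol rule and had 216 (117 and 98.2). ATPsynCF6, a peripheral stalk subunit, had 77.9 (44.2 and 33.5) at 3R:23356013-23356442. ATPsynE, a membrane subunit involved in dimers of the enzyme, had 72.4 (35.6 and 41.3) at 3R:14326635-14327064. ATPsynbeta, the catalytic subunit, had 61.9 (29.9 and 36.6) at 4:1031832-1032261, and in both replicates the 3 signals stayed between 29.9 and 44.2. ATPsynbeta lies on chromosome 4, the small and largely heterochromatic autosome. The pooled list reached 13 of the 15 genes of complex V (86.7%, 59.5 to 98.3), of which 10 were below the threshold. That interval lay above the 50.1% of all genes, while the pooled intervals of the other complexes held it. Of the complex V genes 66.7% were divergent, against 36.2% of all genes. The pooled list reached 10 of its 10 divergent genes (69.2 to 100%), against 70.1% of all divergent genes. It reached 3 of its 5 others (14.7 to 94.7%), against 38.7%, so both intervals held their background. The highest of the 10 genes below the threshold was ATPsynF with 59.7 (38.6 and 29.9), at rank 4075 of the pooled list. ATPsynC followed with 39.9 (21.2 and 16.4). ATPsynF at 59.7 and ND-B22 at 61.1 are the members on either side of the threshold.

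**Figure D2:**
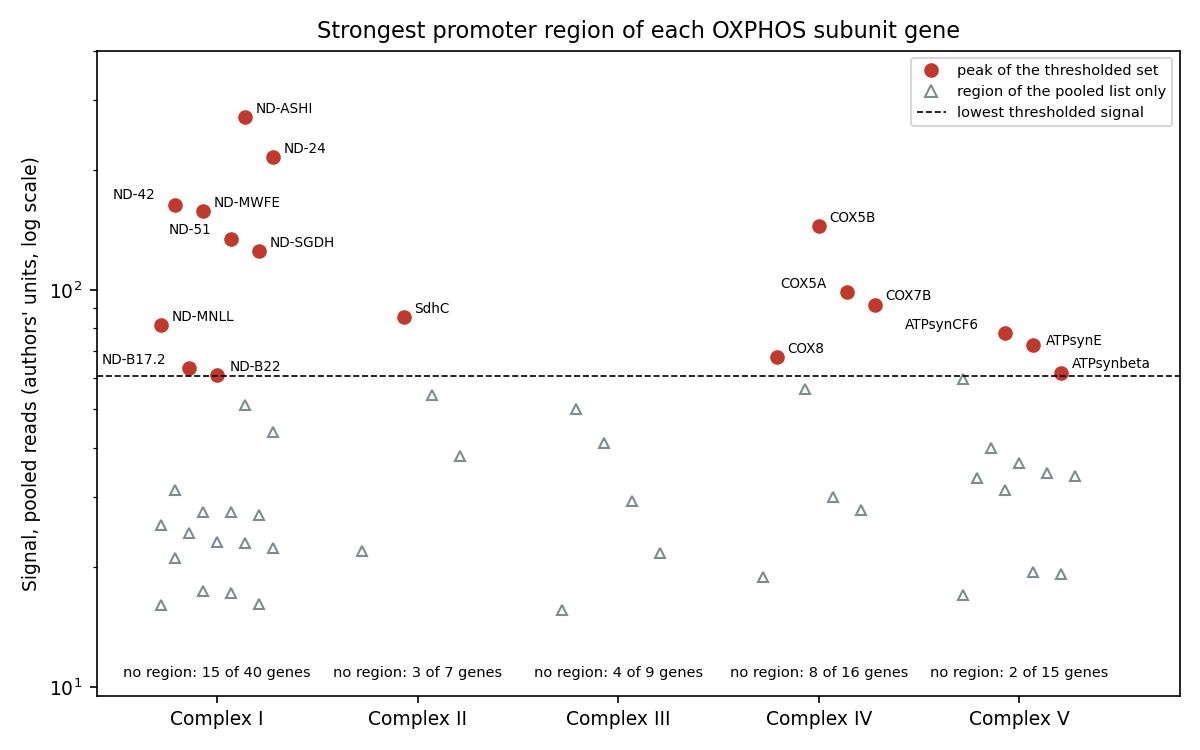
Pooled signal (y axis, authors' units, log scale) of the strongest promoter region of each member, by complex (x axis; sideways shifts only separate the points); red circles are thresholded peaks, grey triangles are regions of the pooled list only, and the dashed line is the lowest thresholded signal of 60.6. The 4 highest signals are at complex I genes, and complex III has none above the line.

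Over the 17 genes the signal had a median of 91.8, against 108 over the 2468 protein-coding genes with a promoter peak. Of these 17 peaks, 17 were matched in replicate 1 and 16 in replicate 2 at an overlap of at least 0.5 of both lengths, and 12 were matched within the 3995 strongest regions of both. The thresholded set was made from these lists, so the matches are not independent evidence. The signal was higher in replicate 2 at 11 genes and higher in replicate 1 at 6, with ND-24 read at any overlap. The median ratio of replicate 2 to replicate 1 was then 1.13. Over the 16 peaks matched in both lists at 0.5 of both lengths it was 1.15. Among all promoter peaks of protein-coding genes matched in both lists (1497 peaks) that ratio was 1.20 at the median, with quartiles at 0.948 and 1.51. At 15 of the 17 genes the replicates were within 2-fold of each other. The exceptions were ND-B22, with a ratio of 2.29, and COX5A, with 0.362. A ratio below that of COX5A was found at 0.935% of all these peaks.

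**Figure D3:**
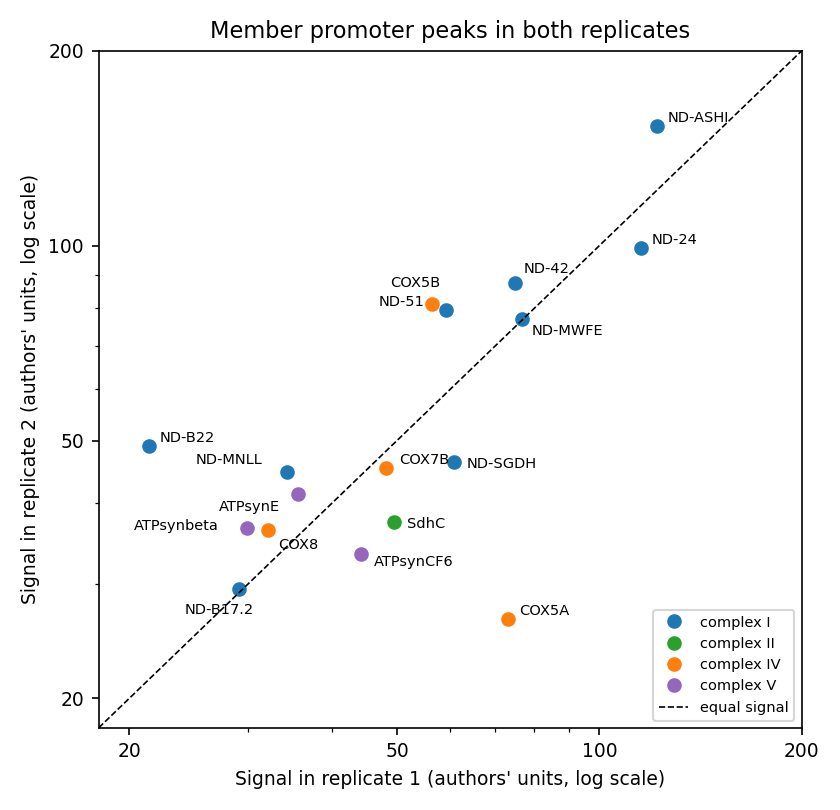
Signal of the 17 thresholded promoter peaks of members in replicate 1 (x axis) and replicate 2 (y axis), both in the authors' units on log scales; each point is 1 gene, coloured by complex, and the dashed line marks equal signal. ND-ASHI and ND-24 are highest in both replicates, and COX5A (73.2 and 26.5) and ND-B22 (21.4 and 49.1) lie farthest from the line.

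The peaks shared a promoter arrangement that the choice of genes did not use. At 16 of the 17 genes the summit lay within 500 bp of the TSS of another protein-coding gene on the opposite strand. Counted in the same way, per gene and on the opposite strand, this held for 1426 of the 2468 protein-coding genes with a promoter peak (57.8%). The exception was ND-B22, whose summit lay 33 bp downstream of its own TSS, in its UTR, with no other TSS within 500 bp. At 13 of the 16 shared promoters the summit lay between the start sites of the pair. No share over all genes is given for this count, so it is not read as a trait of the members. Over the 2468 genes 89.1% of summits lay upstream of the TSS. The distance between the 2 start sites ranged from 42 to 522 bp in 15 pairs, and at COX5A the 2 annotated starts overlapped by 61 bp. The summit was nearer to the TSS of the neighbour than to that of the member in 9 of the 17 cases, at ND-B17.2 it was 60 bp from both, and in the other 7 the member was nearer. A TSS of another gene was nearer at 30.1% of the 2468 genes. By annotation 11 of the 17 summits were intergenic, 4 lay in introns (of Fum1 at ND-ASHI, of TppII at ND-MWFE, and of COX5A and ATPsynbeta at those genes) and 2 in the UTRs of ND-24 and ND-B22. For these places, too, no share over all promoter peaks is given. The lists do not tell which gene of a pair a peak serves.

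Among the 16 partners, 2 have a known role in mitochondria, a grouping made after the names were seen. The partner of ND-ASHI is Fum1, which encodes fumarase of the citric acid cycle, and the summit lay 265 bp upstream of ND-ASHI and 257 bp upstream of Fum1. The partner of ND-42 is Cchl, which encodes the lyase that attaches haem to cytochrome c, with the summit 27 bp from the Cchl TSS and 202 bp from that of ND-42. The other partners follow, with a role in brackets where one is given. No role is stated for the rest, so the count of 2 may be a minimum. ND-24 is paired with corolla (synaptonemal complex), ND-B17.2 with Arpc5 (a subunit of the actin-nucleating Arp2/3 complex), ND-MNLL with p115 (a Golgi tether), ND-MWFE with TppII (a peptidase), ND-SGDH with RhoGAP68F and ND-51 with CG13994. SdhC is paired with Tctp, COX5A with glo (an RNA-binding protein), COX5B with IFT52 (intraflagellar transport), COX7B with Sec3 (exocyst) and COX8 with VhaM9.7-b (vacuolar proton pump). ATPsynCF6 is paired with Sec13 (a coat and nuclear pore protein), ATPsynE with Afti and ATPsynbeta with CG11076. The ND-MNLL summit also lay 129 bp from the TSS of CG45089, on the same strand.

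**Figure D4:**
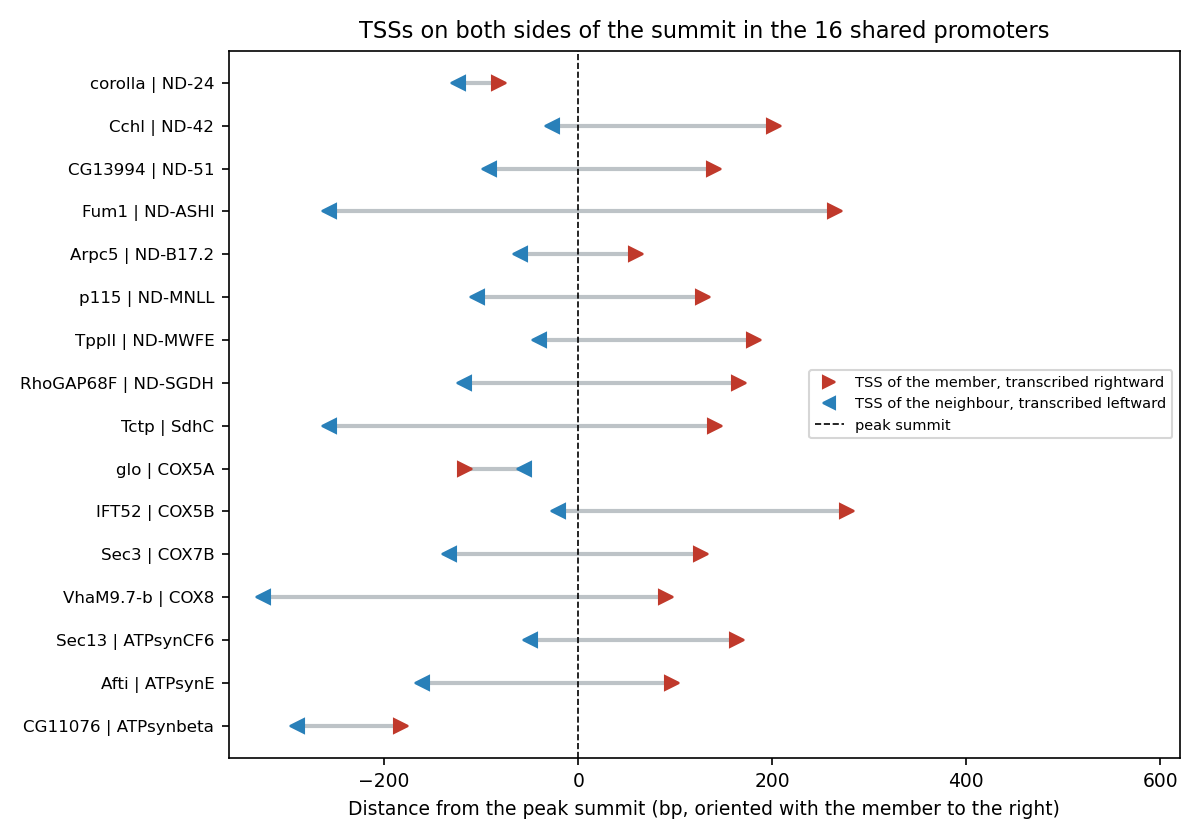
Position of the TSS of the member (red, pointing right) and of its opposite-strand neighbour (blue, pointing left) relative to the peak summit at 0 (x axis, bp, oriented with the member to the right) at the 16 shared promoters. The summit lies between the 2 starts in 13 pairs; at ND-24, COX5A and ATPsynbeta it lies downstream of the member's TSS.

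The sequence at the summits is shown at 6 shared promoters: the strongest peak of complexes I, II, IV and V, the pair with the cytochrome c lyase gene, and ND-SGDH, whose window holds 2 of the motifs searched. Each is the part of the window of 50 bp to each side of the summit that lies outside annotated exons, read 5′ to 3′ on the plus strand of dm6 from the RefSeq genome of the same build. Capitals mark matches to the motifs searched, here TATAAA and CGATA on either strand.
ND-ASHI: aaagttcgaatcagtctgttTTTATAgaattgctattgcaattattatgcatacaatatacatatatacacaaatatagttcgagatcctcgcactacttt
ND-42: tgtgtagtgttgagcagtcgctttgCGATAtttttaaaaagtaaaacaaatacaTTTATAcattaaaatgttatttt
ND-SGDH: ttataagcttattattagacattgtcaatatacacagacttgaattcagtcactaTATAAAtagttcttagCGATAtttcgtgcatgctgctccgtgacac
SdhC: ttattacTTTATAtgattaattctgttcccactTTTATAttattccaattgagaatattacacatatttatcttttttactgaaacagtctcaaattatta
COX5B: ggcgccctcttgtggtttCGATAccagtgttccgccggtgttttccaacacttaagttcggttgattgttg
ATPsynCF6: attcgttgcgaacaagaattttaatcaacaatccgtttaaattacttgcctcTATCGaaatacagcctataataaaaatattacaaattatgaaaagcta
These stretches lie at X:6679333-6679433, 3R:22027481-22027557, 3L:12138700-12138800, 3R:11209940-11210040, 2L:6557503-6557573 and 3R:23356178-23356277 in that order. All but the COX5B stretch are rich in A and T, with a G+C content from 20.8% at SdhC to 33.7% at ND-SGDH, against 50.7% at COX5B. Over the 17 whole windows the G+C content was 29.1%, ranging from 18.8% to 49.5%, and over the 1919 thresholded summits within 500 bp of any protein-coding TSS it was 32.8%. That set holds every such summit, also where a gene has several.

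Motifs were searched on both strands in these windows and, separately, in the promoters of all members, from 250 bp before to 50 bp after the outermost annotated start. CGATA, the core of the BEAF-32 site, was in 6 of the 17 summit windows, against 18% of the 1919 promoter summits. Those 6 were at ND-24, ND-42, ND-SGDH, COX5B, ATPsynCF6 and ATPsynbeta. TATAAA was in 6 of 17 (23.9% of all promoter summits) and CAGCTG in 1 of 17, at ND-42 (3.80%). A run of 8 A was in 2 of 17 (7.30%). No match was found in the 17 windows for the Dref element TATCGATA, which contains CGATA (2.55% of all promoter summits), for GAGAG (9.22%), CACGTG (0.886%), the Ets site CCGGAAGT (0.261%), the Ewg or NRF-1 type site (0.0521%), Motif 1 (0.469%) or the nuclear respiratory gene element (0.156%). A match is a description of the letters in the window, and with 17 windows these shares differ by few counts.

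In the promoters, Motif 1, a core promoter element of Drosophila housekeeping genes, was present in 13 of the 87 members (14.9%), against 4.50% of all 13945 protein-coding promoters. The 13 were ND-13A, ND-18, ND-ACP, ND-B14, ND-B17, ND-MWFE, ND-PDSW, UQCR-6.4, COX5A, COX5B, COX7B, ATPsynC and ATPsynD, and none is an L duplicate. Matches began at positions from -167 to 32 bp relative to the start. Of these 13, ND-MWFE, COX5A, COX5B and COX7B had a thresholded peak and 7 had a pooled region only. Among all 627 genes with Motif 1 in this window, 23.6% had a thresholded promoter peak. The Dref element was in 9 of 87 promoters (10.3%, against 9.36%), TATAAA in 48 (55.2%, against 45.8%) and GAGAG in 20 (23.0%, against 29.7%). The Ets site, the NRF-1 type site and the nuclear respiratory gene element were in 0 of 87, against 0.380%, 0.724% and 0.158% of all promoters.

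Divergent members were then compared with the rest. A gene was called divergent when a protein-coding gene on the opposite strand starts at most 1000 bp upstream. That held for 44 of the 87 members (50.6%), against 36.2% of all protein-coding genes. Of the divergent members 16 had a thresholded peak (36.4%, 22.4 to 52.2), and of the other 43 members 1 had one (2.33%, 0.0589 to 12.3). Among all protein-coding genes the shares were 32.2% of 5052 divergent genes and 9.47% of 8893 others, so a difference in the same direction was present in the background. With each summit given only to the nearest coding TSS, the divergent members with a peak fell to 7 of 44 (15.9%, 6.64 to 30.1) and the other members stayed at 1 of 43, against 19.1% and 9.42% of all genes. A summit between 2 start sites counts for both genes of a pair, in the members and in the background alike. In the strongest regions of replicate 1 the counts were 18 of 44 and 0 of 43, against 34.3% and 9.72% of all divergent and other genes. In those of replicate 2 they were 13 of 44 and 1 of 43, against 30.3% and 9.38%. By complex, the divergent genes with a peak were 8 of 22 in complex I, 1 of 2 in complex II, 0 of 2 in complex III, 4 of 8 in complex IV and 3 of 10 in complex V. Complex III, without a peak, also had the lowest share of divergent genes (22.2%). The part of promoter arrangement in the difference between complexes was not tested.

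Of 20 members whose symbol is that of another member followed by L, 0 had a thresholded peak (upper bound 16.8%), against 17 of the other 67 (25.4%, 15.5 to 37.5) and 17.7% of all genes. In the pooled list 3 of the 20 had a region: UQCR-6.4L, COX7AL and ATPsynbetaL, with 41.1, 18.9 and 17.1. A pooled region was present at 52 of the other 67 (77.6%, 65.8 to 86.9) and at 50.1% of all genes. The interval for the 20 duplicates was 3.21 to 37.9%. The UQCR-6.4L summit lay at -399 bp from its TSS in an intron of Mipp1, and the COX7AL and ATPsynbetaL summits lay in coding exons. No list had a region at 12 of the 20 duplicates, against 11 of the other 67 and 38.3% of all genes. Of the 20 duplicates 3 were divergent, against 41 of the other 67. Among the non-divergent genes that are no duplicate, 1 of 26 had a thresholded peak (3.85%), near the 0 of the duplicates. The thresholded set thus did not separate duplicate status from promoter arrangement. In the pooled list 20 of these 26 genes had a region (76.9%), against 3 of the 20 duplicates (15%). No list had a region at 5 of the 26, against 12 of the 20. The part of duplicate status in this difference was not tested. Another 4 members end in L without a parent among the members (COX6AL, COX6AL2, COX6CL and ATPsynepsilonL), and 0 of these had a thresholded peak. COX7AL2 was the 1 member with a thresholded summit just beyond reach, 523 bp from its TSS, with a signal of 68.7 at 2L:2197174-2197603.

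Below the threshold, the 38 members with a pooled region had signals from 15.6 to 59.7 with a median of 27.6, close to the median of 28.1 over the 4517 protein-coding genes of the same kind. At 23 of the 38 the signal was under 0.5 of the lowest thresholded signal (60.5%, against 55.6% of the 4517). In complex I the highest of these were ND-13B (51.4, with 26.5 and 32.2 in the replicates), whose summit lay 116 bp upstream of its TSS, and ND-B14.5A (43.7, with 17.0 and 24.3). Among all protein-coding genes 6960 of 13945 had no pooled region. In complex I none was found at 15 of 40 genes, ND-20L, ND-23 and ND-24L among them. The same held for 3 of 7 genes of complex II (SdhAL, SdhBL and SdhCL). In complex III it held for 4 of 9, including UQCR-11L, UQCR-14L and UQCR-6.4. Complex IV had 8 of 16 such genes, COX4L, COX5BL and COX6AL among them, and complex V had 2 of 15, ATPsynCF6L and ATPsynGL. The summits of the thresholded peaks lay upstream of the member's TSS at 13 of 17 genes, with a median position of 129 bp upstream, and ranged from 277 bp upstream at COX5B to 183 bp downstream at ATPsynbeta. Over all 2468 genes with a promoter peak 89.1% of summits were upstream, with a median position of -151.5 bp.

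Other genes of the same pathway were listed from textbook knowledge, and their shares stand beside the background of 17.7%, which the intervals of all 5 lists held. Of 17 genes of the citric acid cycle and pyruvate dehydrogenase, 5 had a thresholded promoter peak (29.4%, 10.3 to 56.0). They included Fum1, which shares its peak of 272 with ND-ASHI, Idh3g and Idh3b of isocitrate dehydrogenase (259 and 76.01), mAcon1, the aconitase gene (128), and 1 weaker peak. The Idh3b value came mostly from 1 library, with 53.4 in replicate 1 and 17.55 in replicate 2. Of 8 genes for electron carriers and coenzyme Q synthesis, 4 had one (interval 15.7 to 84.3%). The strongest was at Cyt-c-d, the testis form of cytochrome c (341, with 149 and 190 in the replicates). The others were Coq3 (146, with 67.8 and 78.9), qless (106, with 48.3 and 54.9) and Coq7 (101.5, with 36.6 and 68.2). The Cyt-c-d summit lay 372 bp downstream of its TSS. The somatic form, Cyt-c-p, had a pooled region of 51.7. Among 11 assembly factors 2 had a peak (2.28 to 51.8%), CIA30 of complex I (425, with 182 and 242) and Cox17 of complex IV (193, with no replicate region matched at an overlap of 0.5 of both lengths). Among 11 genes for mitochondrial DNA upkeep and regulators mtSSB alone had one (111, with 35.3 and 83.7 in the replicates). The interval of that share was 0.230 to 41.3%, and TFAM had a pooled region of 42.5 (14.1 and 31.7). Of 7 subunit genes whose symbols fall outside the rule, 3 had a peak (9.90 to 81.6%): blw, the ATP synthase alpha subunit (216), levy of complex IV (138) and cype of complex IV (73.5). The complex III genes among them had none, with pooled regions of 47.0 at RFeSP and 43.1 at Cyt-c1 and no pooled region at ox. There was also no pooled region at sun of complex V. Another gene shared the summits at mAcon1, Idh3g, Cyt-c-d, Coq3, qless, CIA30, levy and cype. None shared those at Idh3b, Coq7, Cox17, mtSSB and blw. With these 7 genes added the counts were 0 of 12 in complex III, 6 of 18 in complex IV and 4 of 17 in complex V.

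Large complexes encoded by many genes served for comparison. Cytoplasmic ribosomal protein genes, chosen by symbol, had a thresholded peak in 52 of 93 cases (55.9%, 45.2 to 66.2) and mitochondrial ribosomal protein genes in 28 of 73 (38.4%, 27.2 to 50.5). Proteasome subunit genes had one in 6 of 48 (12.5%, 4.73 to 25.3). The interval of the respiratory genes overlapped those of the mitochondrial ribosomal and proteasome genes and lay below that of the cytoplasmic ribosomal genes. Mitochondrial ribosomal genes were divergent in 58 of 73 cases, and 27 of those 58 had a peak, against 1 of the other 15. Cytoplasmic ribosomal genes differed in this respect, with a peak at 36 of 56 divergent genes and at 16 of the 37 others. For proteasome genes the counts were 5 of 26 and 1 of 22. None of these differences was tested.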

How the data were processed

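ChIP-seq of CG18476-eGFP embryos gave 2 libraries. Per the labels, chromatin was sonicated to fragments of 200 to 800 bp. Regions were called by the authors for each replicate and for the pooled reads, and the IDR thresholded set derives from those lists, per the README texts deposited with the samples. Not given in the sources used here are the aligner, the program that called regions and the cutoff on IDR. The signal of each region is the authors' deposited value, and so is its -log10 q value, which was not used for any count. The dm6 lists were used, with Ensembl release 115 genes on 6 arms. The dm3 lists were not used here. Summits were assigned to every gene with a TSS within 500 bp. A replicate region matched a peak at an overlap of at least 0.5 of both lengths, where several overlapped, the one with the largest overlap. With 1 group there was no test between groups. Lists are described by counts, with exact binomial (Clopper-Pearson) intervals at 95%, and no list was tested for enrichment. The members, lists, motifs and alternatives were chosen with earlier results of these data known, and the divergent grouping and the subunits under other symbols were added after seeing counts. Of the pathway symbols, 3 were matched through RefSeq synonyms and 6 matched no gene under those names. Genes were named by rule: every member with a thresholded peak and its neighbours, the 2 highest below the threshold and up to 3 without a region per complex, and the highest of the pathway lists. Genes of the comparison lists are counted and not named. Genes named outside the rule (ND-75, SdhA, Cyt-c-p, the weaker complex III genes, the pooled L duplicates and the carriers of Motif 1) were chosen after their values were seen. Counting and motif search were tested on simulated data. Scripts ran under Python 3.11.15 with SciPy 1.17.1, NumPy 2.4.6 and, for figures, Matplotlib 3.10.9.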

Additional observations from a re-analysis of the deposited data

How the results depend on the processing

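Leaving out replicate 2 or replicate 1, by using the strongest 3995 regions of the other, gave 14 to 18 members with a promoter peak, 8 in complex I either way, 1 in complex II, 0 in complex III, 3 to 5 in complex IV and 2 to 4 in complex V. Among all protein-coding genes it gave 2367 to 2595, among divergent members 13 to 18 and among the other members 0 to 1. Over all protein-coding genes it gave 1533 to 1731 of the 5052 divergent genes and 834 to 864 of the 8893 others. Without replicate 2 COX6B and ATPsynF entered and ND-B22 left, and without replicate 1 ND-B17.2, COX5A and ATPsynCF6 left. In the upper 1997 peaks by signal 8 members remained, with 6 in complex I, 0 in complex II, 2 in complex IV and 0 in complex V, of 1423 genes in all. With every region of the pooled list the counts were 55 members, 25 in complex I, 4 in complex II, 5 in complex III, 8 in complex IV and 13 in complex V, of 6985 genes. Assigning each summit only to the nearest coding TSS gave 8 members, 3 in complex I, 2 in complex IV and 7 among divergent members, since 9 summits lie nearer to a neighbour. The members' share was then 9.20%, below the 12.9% of all genes (1802), where the reported shares were 19.5% and 17.7%. Promoter distances of 250 and 1000 bp gave 15 and 18 members (17.24% and 20.7%, against 13.9% and 20.4% of all genes), the midpoint in place of the summit 17, and a divergent distance of 500 bp 16 of 39 against 1 of 48. Without L duplicates the count was 17 of 67. An overlap of at least 1 bp matched 17 of 17 peaks in both replicates. The alternatives on divergent members were chosen after seeing the data. No paired analysis was possible because the 2 libraries form a single group. Depth, and with it the error of a signal, is unknown from these lists.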

Other observations

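The members with a thresholded peak were spread over the chromosome arms. There were 4 of 16 on 2L, 3 of 20 on 3L, 5 of 19 on 3R, 3 of 13 on X and 1 of 2 on chromosome 4. On 2R there was 1 of 17 (interval 0.149 to 28.7%), at ND-MWFE. The subunit genes blw and levy, outside the symbol rule, also lie on 2R and had thresholded peaks (216 and 138), while ox there had no pooled region. Over all protein-coding genes the shares were 17.7% on 2L, 16.5% on 2R, 18.8% on 3L, 19.4% on 3R, 15.5% on X and 8.75% on chromosome 4. The members' interval on 2R held the share of all genes there. Of the 17 members on 2R 6 were divergent, against 10 of 13 on X and 12 of 19 on 3R. The difference between arms was not tested.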
